A study of Mus musculus with 18 samples.

Results

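Whether storing potatoes matters for the brain of mice fed on them was examined by setting 4 arrays from mice given flour of stored tubers beside 5 arrays from mice given flour of unstored tubers. These 9 arrays, each from a different mouse, were 9 of the 18 deposited columns. The stored side held PCS replicates 1 and 2 (conventionally grown, stored) and POS replicates 1 and 2 (organically grown, stored). The unstored side held PC replicates 1, 2 and 3 (conventional) and PO replicates 1 and 3 (organic). All were male BALB/cOlaHsd mice, 8 weeks old at the start. They received 30 mg of whole-tuber flour in water by gavage daily for 20 days besides standard chow, and the brain of 3 of the 12 mice of each group was then cut into pieces for RNA, the region not being named. Controls, used here for levels only, received water by the same route. How, and for how long, tubers were stored is not stated in the labels.

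A potato tuber stays alive in store. It respires, turns starch into sugars, can build up bitter glycoalkaloids when exposed to light, and is often treated against sprouting, so stored and fresh flour can differ in residues and in the tuber's own compounds. Brain tissue mixes neurons, astrocytes, oligodendrocytes, microglia and vessels. An array value of such tissue cannot tell fewer cells of a type from less RNA per cell. The 12439 features of the value table carry numbers, and only 51 of them are given a gene name, through the authors' deposited table. None of the usual markers of brain cell types is among those 51, so the labelled tissue could not be checked by markers.

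The authors list the 51 genes with folds over water, 48 with positive and 3 with negative entries on the stored-potato arrays. How the genes were chosen is not stated, and the stored arrays are taken to have had a part in it. Counts and medians of these genes below describe the list without being independent evidence of a storage effect. In the authors' deposited table Phldb2 is the only gene with entries on PC arrays, and PO arrays have none.

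Before any scaling, the stored arrays were brighter. The 75th percentile of deposited intensity was 1059, 1026 and 1079 on PC replicates 1 to 3, and 1019.5 and 1016 on PO replicates 1 and 3. It was 1996 and 1614 on PCS replicates 1 and 2, and 1592 and 1531 on POS replicates 1 and 2. No stored array overlapped with an unstored array, and the ratio of geometric means was 1.61 (exact two-sided permutation test, p = 0.0159, the smallest that 4 against 5 arrays can give, 4 of 4 stored arrays higher). The ratio was 1.70 for PCS over PC and 1.53 for POS over PO. All values below are scaled intensities, with each array brought to a common 75th percentile, so that this brightness is taken out of every gene. The files do not say which arrays were labelled, hybridised or scanned together, so storage and such a batch cannot be told apart. The columns of PO replicate 2 (the mean of 2 other columns in all 12439 features) and of PCS and POS replicate 3 (r from -0.17 to -0.14 with the other arrays over log2 values of features) were left out. POS replicate 2 correlated with the 14 other arrays of the series at r = 0.83 to 0.85, where these correlated with each other at 0.97 to 0.98.

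**Figure D1:**
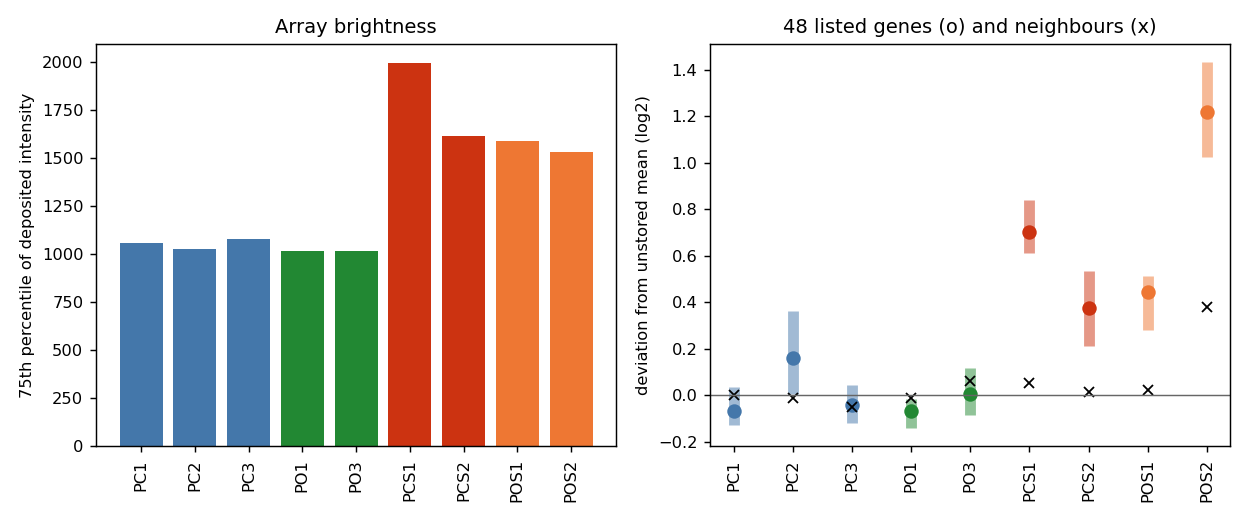
Left, the 75th percentile of deposited intensity on each of the 9 arrays, as bars from 0; the stored arrays reach 1531 to 1996 and the unstored arrays 1016 to 1079. Right, for the 48 listed genes with positive entries, the median (circle) and quartile range (bar) of the log2 deviation of each scaled array from the unstored mean, with the median of the 922 features around them (cross); POS replicate 2 has both the highest circle, at 1.22, and the highest cross, at 0.38.

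After scaling, no feature passed the test between stored and unstored flour. With limma on the 4 group means, storage averaged over cultivation gave 0 of 12439 features at an adjusted p under 0.05 (background 0%, smallest adjusted p 0.293), while 1782 had an unadjusted p under 0.05, 1041 higher and 741 lower with storage. Within conventional potatoes, PCS against PC gave 0 features (background 0%, 476 with an unadjusted p under 0.05) and POS against PO gave 0 (background 0%, 1703 with an unadjusted p under 0.05). The median half-width of a feature's 95% interval on the log2 scale was 0.47 for storage averaged over cultivation, 0.63 within conventional and 0.69 within organic potatoes. The smallest adjusted p for the average was 0.0782 without POS replicate 2, again with 0 features past the threshold and 1859 with an unadjusted p under 0.05. When POS replicate 1 was left out, POS was represented by the array with the local trend described below, and its own spread was taken from the other groups. In that fit 4391 features passed for storage averaged over cultivation, 1828 higher and 2563 lower, and 4640 within organic potatoes.

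The median storage difference over all features was -0.01 on the log2 scale, but it varied with the level on the unstored arrays. It was 0.07 in the dimmest of 10 equal bins of unstored level and between -0.05 and 0.04 in the next 8. In the brightest bin, from a scaled intensity of 3036 upward, it was -0.15. The unstored level enters both the bins and the difference. How much of this pattern comes from the binning itself was not tested. The 48 listed genes with positive entries lay in the sixth to ninth bins.

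The comparisons PCS against PC and POS against PO share no array, so each is a look at storage in other mice. Across the 12439 features their log2 differences correlated at r = 0.36 (Spearman 0.40), or r = 0.43 with POS replicate 1 alone and 0.28 with POS replicate 2 alone. Features are not independent replicates, the stored arrays were the brighter ones in both, and these values are descriptions. Of the 364 features at least 1.5-fold higher in PCS than PC, 76.4% were also higher in POS than PO, where 53.6% of all features were. Of the 523 at least 1.5-fold lower, 74.2% were also lower, where 46.4% of all features were. Of all 12439 features, 199 reached 1.5-fold towards higher values on both sides, and 210 did so towards lower values. Among the 48 listed genes with positive entries, 16 did so towards higher values. The stored arrays are taken to have had a part in choosing these 48. With POS replicate 1 alone for POS, 149 of the 12439 features were higher on both sides and 138 lower. Of the 48, 8 were then higher on both sides.

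The 48 listed genes with positive entries lay above the unstored level on average in all 48 cases, with a median log2 difference of 0.68 and a range from 0.09 to 2.52. 32 of the 48 were more than 1.5-fold higher (background 5.39%) and 2 were at least 2-fold higher (background 0.587%), Zfp37 and Cpne4. Without POS replicate 2, 15 of the 48 were at least 1.5-fold higher (background 2.81%) and 1, Zfp37, at least 2-fold (background 0.297%). An unadjusted p under 0.05 was found for 41 of the 48 (background 8.37%). In 30 of the 48 every stored array lay above every unstored array (background 4.69%). These 30 were bound to do so without POS replicate 2 as well, and no other gene of the 48 joined them (background 5.98%). The difference was above 0 in 47 of 48 for PCS against PC (background 47.5%, median 0.52) and in 48 of 48 for POS against PO (background 53.6%, median 0.88). Both PCS arrays lay above all PC arrays for 38 (background 13.9%), both POS arrays above both PO arrays for 44 (background 23.2%), and POS replicate 1 by itself above both PO arrays for 44 (background 32.6%). None of the 51 passed the test (limma, adjusted p from 0.293 to 0.728, and from 0.208 to 0.955 without POS replicate 2). When POS replicate 1 was left out, 50 of the 51 passed (background 35.3%). With no scaling all 48 passed, as did 64.4% of all features.

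The authors give the listed genes as folds over water, so other features with such a fold are set beside the list. Over the water controls, 2986 features exceed a mean fold of 2 in both PCS and POS on deposited values, and the 48 are 1.61% of them. These 2986 features had a median storage difference of 0.35 after scaling (quartiles 0.20 and 0.53), beside 0.68 for the 48. All stored arrays lay above all unstored arrays for 17.8% of the 2986 and for 62.5% of the 48. The 2986 were taken for being high on the stored arrays, and the 48 are among them. The fold was taken on values in which the stored arrays were still the brighter ones. A higher stored level is thus built into both sets, and these values are descriptions. The labels do not say how the 48 were picked.

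The 4 stored mice differed among themselves over these 48 genes. Against the unstored mean, the median log2 deviation of the 48 was 0.70 on PCS replicate 1, 0.38 on PCS replicate 2, and 0.44 and 1.22 on POS replicates 1 and 2. On the unstored arrays it lay between -0.07 and 0.16, with PC replicate 2 the highest. The 922 features within 10 places of a listed gene in feature order, none of them listed, had medians of 0.05, 0.02 and 0.02 on the first 3 stored arrays and 0.38 on POS replicate 2. POS replicate 2 carried a smooth local trend along feature order, with a running median between -1.47 and 0.61. With each array's running median subtracted, the deviation of the 48 was 0.89 on that array and 0.71, 0.36 and 0.43 on the others, and the median storage difference was 0.59. Without POS replicate 2 it was 0.50.

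**Figure D2:**
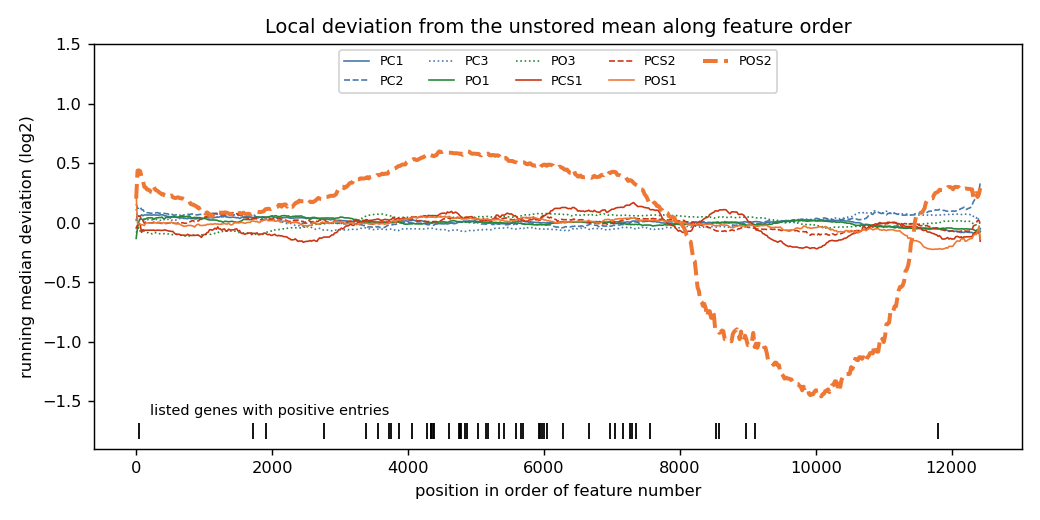
Running median of the log2 deviation of each scaled array from the unstored mean, plotted against position in the order of feature number (blue PC, green PO, red PCS, orange POS; the thick dashed orange line is POS replicate 2), with ticks for the 48 listed genes with positive entries. POS replicate 2 swings from 0.61 to -1.47, and most ticks stand where it is above 0.

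Ppp1r18, Tulp4 and Adgb, the 3 genes with negative entries, had the largest differences of the list, all towards lower values with storage. Ppp1r18 encodes phostensin, which brings protein phosphatase 1 to actin filaments. Its scaled intensity was 57614, 51033 and 28335 on PC replicates 1 to 3 and 60644 and 33208 on PO replicates 1 and 3. It was 2090.2 and 7842 on PCS replicates 1 and 2 and 17161 and 4357 on POS replicates 1 and 2. Every stored array thus lay below every unstored array, with means of 7863 ± 6635 (SD, n = 4) and 46167 ± 14579.5 (SD, n = 5). Water controls stood at 52843 ± 16656 (SD, n = 3). The log2 difference was -2.90 ± 0.54 (SE), a 7.48-fold lower level (limma, adjusted p 0.293), and -2.41 without POS replicate 2.

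Tulp4, a tubby-like protein with a domain of ubiquitin ligase adaptors, followed Ppp1r18 array by array. Its stored arrays read 1737 and 7282 in PCS and 17245 and 3588 in POS, and its unstored arrays lay between 29287 and 63109. Its log2 difference was -3.13 ± 0.59 (SE). Adgb, androglobin, is a large globin best known from the testis. It read 1591 and 6474 in PCS and 16805 and 377 in POS, against 31654 to 65032 unstored, a log2 difference of -4.07 ± 1.04 (SE). Without POS replicate 2 the difference of Adgb was -2.70. Adgb lies where the running median of POS replicate 2 was -1.44. Stored arrays lay below all unstored arrays for 3 of these 3 genes (background 4.67%). It followed that 3 of these 3 did so without POS replicate 2 (background 7.50%). It also followed that 3 of these 3 did so within conventional (background 16.6%) and within organic potatoes (background 19.3%). These further counts were bound to come out so and add nothing to the first. The 3 genes read nearly the same on most arrays (17161, 17245 and 16805 on POS replicate 1), and whether their probes report separate signals was not tested, so they may not count as 3 observations. All 3 had an unadjusted p under 0.05 (background 5.96%) and an adjusted p of 0.293 (limma).

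A total of 5 features had a mean fold under 0.5 over water in both PCS and POS on deposited values, and these 3 genes are 60.0% of them. The other two are unnamed and were singled out after their values were seen. Feature 15969 read 1905, 7836, 17316 and 4519 on the stored arrays in the same order, close to Ppp1r18 on each of them, and 29446 to 65109 unstored. Feature 36627 read 1463, 4901, 6177 and 4733 stored and 12483 to 25366 unstored.

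Zfp37, a zinc finger protein of the transcription factor type, had the largest difference towards higher values. It read 781, 970.2 and 2355 on PC replicates 1 to 3, 885 and 2190.2 on PO replicates 1 and 3, 21008 and 4790.5 on PCS replicates 1 and 2, and 2641 and 11765 on POS replicates 1 and 2. The stored arrays ran in the reverse order of Ppp1r18, with PCS replicate 1 the highest and POS replicate 1 the closest to the unstored arrays. Means were 10051 ± 8278 (SD, n = 4) stored and 1436 ± 769 (SD, n = 5) unstored, beside 1306 ± 543 (SD, n = 3) with water. The log2 difference was 2.52 ± 0.65 (SE), 5.75-fold (limma, adjusted p 0.293), and 1.99 without POS replicate 2. Among unstored arrays too, those numbered 3 stood apart: Ppp1r18 was 28335 and 33208 there against 51033 to 60644 on the others, and Zfp37 was 2190.2 and 2355 against 781 to 970.2. Water control replicate 3 also stood apart, with 33612 against 62278 and 62640 for Ppp1r18 and 1928 against 933 and 1056 for Zfp37. The stored side held only arrays numbered 1 and 2, so the replicate numbers are not balanced between the sides.

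**Figure D3:**
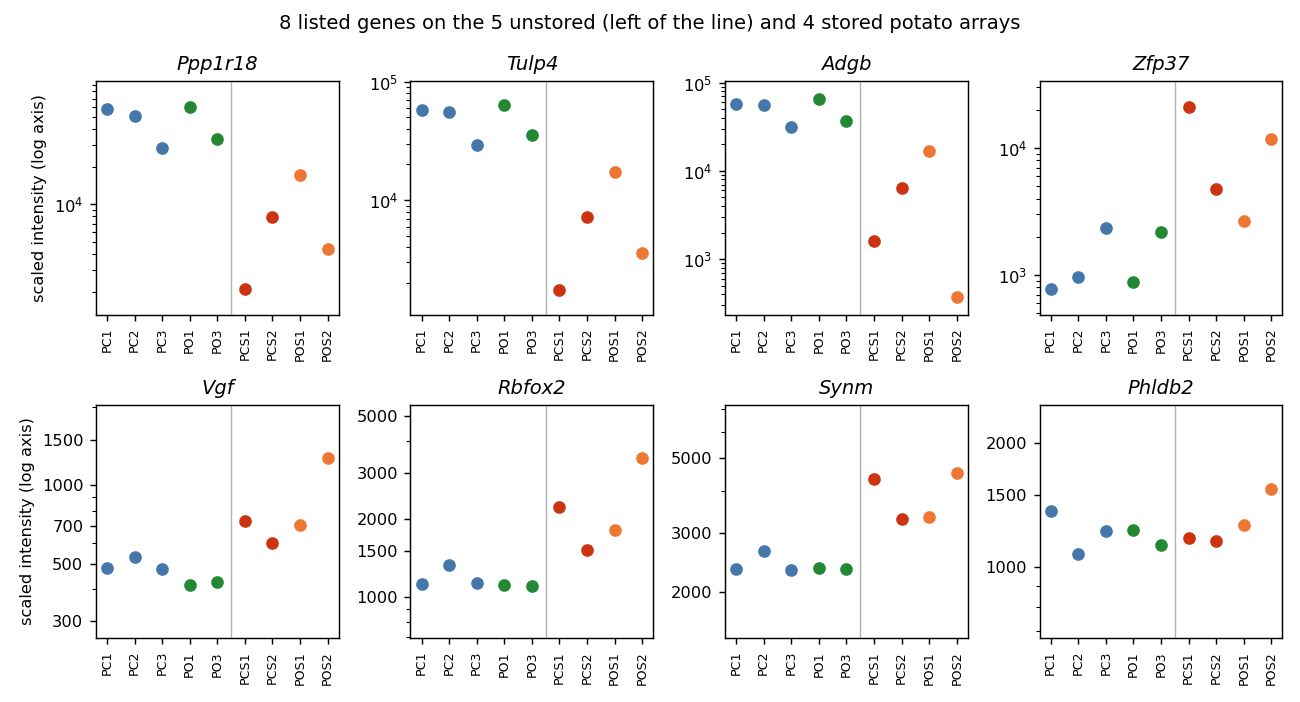
Scaled intensity (log axis) of 8 listed genes on the 5 unstored arrays (blue PC, green PO) and the 4 stored arrays (red PCS, orange POS), 1 point per mouse. Ppp1r18, Tulp4 and Adgb lie lower and Zfp37 higher on every stored array; Vgf, Rbfox2 and Synm lie higher by less, and Phldb2 overlaps.

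The promoters of these 4 genes are shown because they had the largest storage differences of the list, from 250 bases before to 50 after the most upstream start that RefSeq lists for each (GRCm38.p6). Capitals mark, on either strand, the GC box (GGGCGG), the CCAAT box, the TATA box (spelled TATAAA) and the E-box (spelled CACGTG), none of which overlap here.
Adgb, chr10:10472350-10472649, strand minus: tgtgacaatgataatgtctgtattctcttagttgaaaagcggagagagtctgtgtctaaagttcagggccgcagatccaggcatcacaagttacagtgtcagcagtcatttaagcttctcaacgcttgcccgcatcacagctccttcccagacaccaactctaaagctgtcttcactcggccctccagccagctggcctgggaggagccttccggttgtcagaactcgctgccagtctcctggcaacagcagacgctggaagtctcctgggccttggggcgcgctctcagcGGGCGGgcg
Tulp4, chr17:6106580-6106879, strand plus: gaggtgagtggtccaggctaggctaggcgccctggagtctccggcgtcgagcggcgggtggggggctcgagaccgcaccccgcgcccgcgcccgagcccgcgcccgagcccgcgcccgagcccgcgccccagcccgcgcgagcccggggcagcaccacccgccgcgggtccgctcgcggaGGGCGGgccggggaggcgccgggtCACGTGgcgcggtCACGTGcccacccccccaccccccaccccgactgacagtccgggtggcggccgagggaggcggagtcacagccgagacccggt
Ppp1r18, chr17:35865345-35865644, strand plus: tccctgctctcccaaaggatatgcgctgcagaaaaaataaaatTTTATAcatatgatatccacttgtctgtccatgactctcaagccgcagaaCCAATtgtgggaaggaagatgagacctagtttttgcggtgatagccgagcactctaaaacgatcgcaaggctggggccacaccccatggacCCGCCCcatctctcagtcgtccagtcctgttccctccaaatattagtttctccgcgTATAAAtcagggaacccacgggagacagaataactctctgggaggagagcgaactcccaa
Zfp37, chr4:62208497-62208796, strand minus: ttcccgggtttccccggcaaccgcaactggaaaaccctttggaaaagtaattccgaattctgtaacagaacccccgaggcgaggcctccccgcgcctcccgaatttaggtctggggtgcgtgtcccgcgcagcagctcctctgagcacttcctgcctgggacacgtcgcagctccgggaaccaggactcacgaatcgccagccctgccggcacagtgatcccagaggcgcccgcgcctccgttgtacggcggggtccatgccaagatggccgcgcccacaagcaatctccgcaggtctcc
GGGCGG occurs once in the Adgb, Tulp4 and Ppp1r18 windows; 35.7% of all 32851 promoters of this length in the table hold it at least once. Tulp4 holds 2 copies of CACGTG (7.15% of all promoters), and Ppp1r18 holds 1 CCAAT (37.4%) and 2 TATAAA (13.6%). None of the 4 motifs is in the Zfp37 window. These matches describe the letters only.

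Genes of the nervous system and of neuronal signalling formed a small group. By the authors' grouping 5 genes belong to the nervous system, among them Sema4f and the odorant receptors Olfr1183 and Olfr1278. All 5 had every stored array above every unstored array (4.69% of all features, 62.5% of the 48). Their median difference was 0.72 on the log2 scale. The 2 genes of nervous system development had 0.80 and 0.83, and only 1 of these 2, Vgf, had no overlap. Vgf, a secreted neuropeptide precursor induced by nerve growth factor, read 479.9, 531 and 478 in PC and 413 and 423 in PO. With storage it read 730.0 and 598 in PCS and 706 and 1277 in POS. No stored value overlapped with the unstored ones, and POS replicate 2 was far above the other stored arrays although features around Vgf were low on it, with a running median of -1.03. Its log2 difference was 0.80 ± 0.20 (SE), 0.59 without POS replicate 2 and 1.06 with the running median subtracted.

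Sema4f, a membrane-bound semaphorin of axon guidance, read 819 and 813 in PCS and 736 and 1156 in POS, against 492 to 609 unstored (log2 difference 0.69 ± 0.17 SE). Odorant and pheromone receptors are named here as a family of cell-surface receptors best known from the nose. Olfr1183 read 1836 and 1602 in PCS and 1517 and 2747 in POS, and 917 to 1394 unstored. Olfr1278 read 1622 and 1569 in PCS and 1615 and 1981 in POS, and 899.9 to 1505 unstored, beside water controls of 1102, 83.7 and 1265. Vmn1r20, a vomeronasal receptor, read 1982 and 1843 in PCS and 1799 and 2942 in POS, and 930.5 to 1632 unstored. For these 3 receptors every stored array lay above the highest unstored array, which was PC replicate 2 each time. Their log2 differences were 0.84 ± 0.22, 0.72 ± 0.19 and 0.96 ± 0.23 (SE), and 0.63, 0.65 and 0.78 without POS replicate 2.

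The reproductive group of the authors held 5 positive genes with a median of 0.93. Of these 5, 4 had no overlap (4.69% of all features, 62.5% of the 48). Rbfox2, an RNA-binding regulator of alternative splicing in neurons and muscle, read 1119, 1324 and 1128 in PC and 1109 and 1105 in PO. It read 2233 and 1513 in PCS and 1805 and 3455 in POS, so that the lowest stored mouse stood just above the highest unstored mouse. The log2 difference was 0.90 ± 0.23 (SE), and 0.67 without POS replicate 2. Catsperb, an auxiliary subunit of the calcium channel of sperm, had 5086 ± 1536 (SD, n = 4) stored and 2615 ± 511 (SD, n = 5) unstored.

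The carcinogenesis group of the authors was the largest, with 22 positive genes and a median log2 difference of 0.67. Of these 22, 12 had no overlap (4.69% of all features, 62.5% of the 48). Smarcc1, a core subunit of the SWI/SNF chromatin remodelling complex, read 1035 and 799 in PCS and 818 and 1624 in POS, against 537 to 620.3 unstored (log2 difference 0.87 ± 0.22 SE). Gatad2a, of the NuRD remodelling complex, read 1897 and 1619 in PCS and 1514 and 3534 in POS, against 853 to 1351 (1.00 ± 0.27 SE). Atf2, a leucine zipper factor that binds cyclic AMP response elements, read 881 and 651 in PCS and 633 and 1048 in POS, against 386 to 572 (0.80 ± 0.21 SE). POS replicate 2 was the highest array for all 3 genes, and without it their differences were 0.62, 0.69 and 0.62.

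Mki67, the proliferation antigen Ki-67, read 985 and 761 in PCS and 775 and 1181 in POS, against 494 to 611 unstored, a log2 difference of 0.72 ± 0.17 (SE). Synm, synemin of the intermediate filaments, read 4336 and 3292 in PCS and 3340.2 and 4513 in POS, against 2324 to 2639 (0.68 ± 0.16 SE). In Synm the spread between stored mice was small, and PCS replicate 1 reached nearly the level of POS replicate 2. Cpne4, a calcium-dependent phospholipid-binding copine, read 2064 and 1591 in PCS and 1637 and 3523 in POS, against 881 to 1469 (1.06 ± 0.27 SE).

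The immune group held 10 genes with a median of 0.67. In this group 5 genes had no overlap (4.69% of all features, 62.5% of the 48). Zbtb37, a zinc finger protein with a BTB domain, led it by p and had 895 ± 161 (SD, n = 4) stored against 539 ± 60.9 (SD, n = 5) unstored, 0.72 ± 0.17 (SE) on the log2 scale. Cish, a cytokine-induced inhibitor of cytokine signalling, was at the other end with 1421 ± 381 and 1082 ± 103, a log2 difference of 0.34 ± 0.18 (SE), or 0.14 without POS replicate 2. Mylk3, the cardiac myosin light chain kinase and the single gene of the cardiovascular group, had 2497 ± 507 and 1552 ± 112 (0.68 ± 0.17 SE).

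At the other end of the list the 95% intervals included 0, for Cish and for the next 3 genes among others. Phldb2, a pleckstrin homology domain protein at the cell cortex, read 1368, 1073 and 1222 in PC, 1227 and 1131 in PO, 1175 and 1157 in PCS, and 1261 and 1549.6 in POS. The groups overlapped, and the log2 difference was 0.09 with a 95% interval from -0.23 to 0.42. Its water controls read 1258, 1043 and, at the floor of the scale, 16. Mzb1, a chaperone of antibody-secreting cells, had a log2 difference of 0.34 (interval -0.09 to 0.76) and Btbd10, a BTB domain protein, 0.38 (-0.11 to 0.87). Without POS replicate 2 these 3 differences were 0.02, 0.14 and 0.19.

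**Figure D4:**
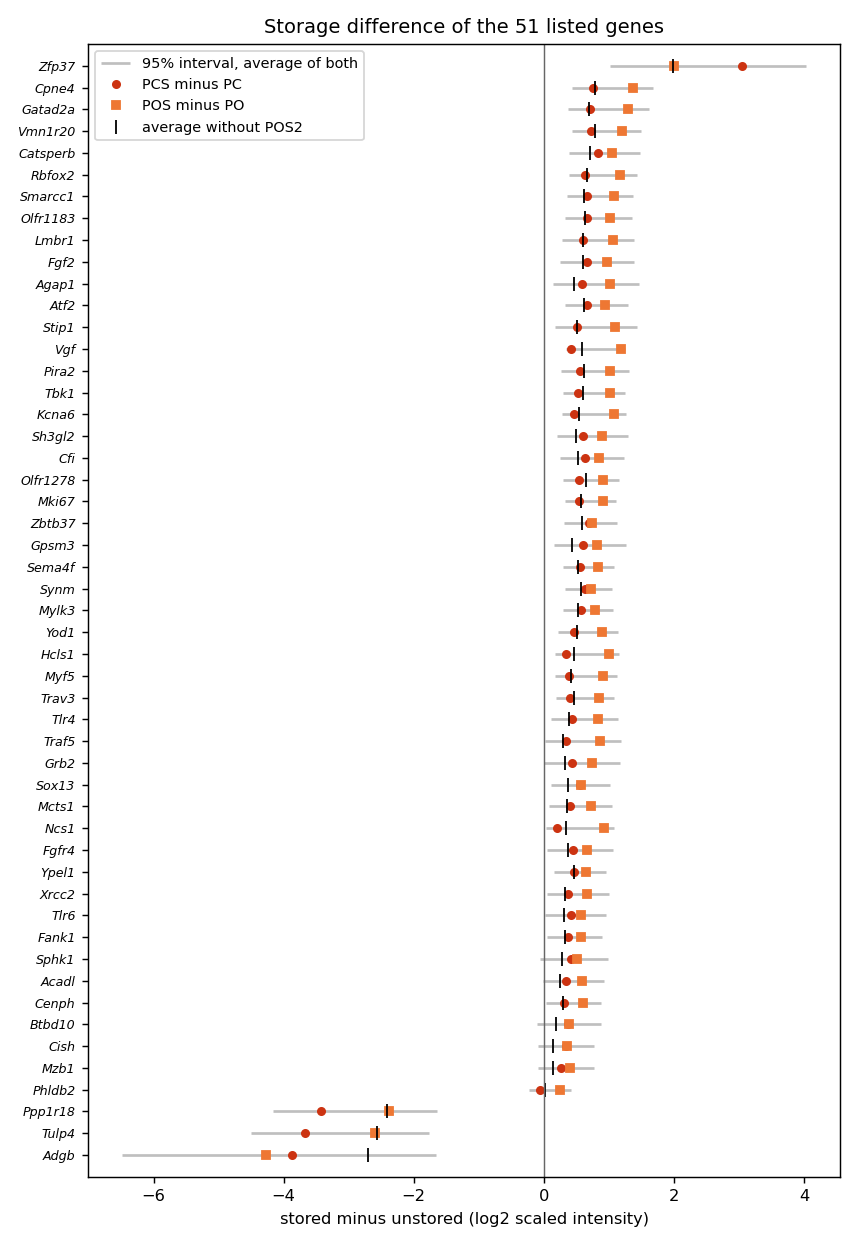
Storage difference (log2 scaled intensity, stored minus unstored) of the 51 listed genes, ordered by their average over both cultivations. Grey lines are 95% intervals of that average (n = 4 stored and 5 unstored mice), red circles PCS minus PC, orange squares POS minus PO, and black strokes the average without POS replicate 2; 47 of the 48 upper genes, all but Zfp37, have their square to the right of their circle.

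Whether storage acted alike on conventional and organic potatoes was tested as an interaction. POS minus PO exceeded PCS minus PC in 47 of the 48 positive genes, all but Zfp37 (background 57.0%). The smallest unadjusted p values of the interaction within the list belonged to Vgf, Ncs1 (neuronal calcium sensor 1) and Hcls1 (an actin regulator of blood cells). Vgf had 0.41 ± 0.26 (SE) for PCS minus PC and 1.18 ± 0.29 for POS minus PO. Ncs1 had 0.20 ± 0.30 and 0.92 ± 0.33, and Hcls1 0.34 ± 0.29 and 1.00 ± 0.31. Without POS replicate 2, POS minus PO was 0.76 for Vgf, 0.48 for Ncs1 and 0.60 for Hcls1. None of these differences between cultivations passed (limma, adjusted p 0.828 for each), and 0 of 12439 features did (background 0%, 260 with an unadjusted p under 0.05, median half-width of the 95% interval 0.94). Without POS replicate 2 the median of the 48 for POS minus PO was 0.49, beside 0.52 for PCS minus PC. Without POS replicate 1 the interaction gave 2738 features, 2139 of them with the higher storage difference in conventional and 599 in organic potatoes.

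Among features without a gene name, 260 were at least 1.5-fold higher and 346 at least 1.5-fold lower with no overlap between stored and unstored arrays. Of all 12439 features, 5.39% were at least 1.5-fold higher and 11.8% at least 1.5-fold lower. All stored arrays lay above all unstored arrays for 4.69% of them and below for 4.67%. All these values include POS replicate 2 with its local trend. Of the 260 and 346 unnamed features, those with the smallest p lay at the dim end of the arrays. Feature 5341 read 208 and 256 in PCS and 205 and 244 in POS, against 62.2 to 96.9 unstored, a log2 difference of 1.56 ± 0.18 (SE) and 2.96-fold. Feature 13837 read 99.3, 97.5, 78.2 and 144 on the stored arrays and 29.9 to 40.0 on the unstored. The water controls of feature 13837 read 55.3 to 89.7, above all its unstored arrays. Features 8207 and 38578 had log2 differences of 0.96 ± 0.14 and 0.99 ± 0.14 (SE).

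On the lower side, feature 41220 read 18.7 and 16 in PCS and 16 and 29.6 in POS, against 46.4 to 72.2 unstored. Its water controls read 20.8, 48.6 and 55.5. It is also the feature with the smallest adjusted p without POS replicate 2, where PCS replicate 2 and POS replicate 1 both stand at 16. The values of 16 are the floor, so its log2 difference of -1.70 ± 0.22 (SE) is not a full measure of the change. Feature 33249 had -1.67 ± 0.27 (SE), with POS replicate 2 at the floor. Features 38359 and 37202 had -1.22 ± 0.20 and -0.92 ± 0.16 (SE). These 8 features had an adjusted p of 0.293 each in limma. They were taken for having no overlap, so leaving out POS replicate 2 could not turn their differences.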

How the data were processed

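Agilent one-colour arrays of brain RNA (Cy3-labelled) gave 1 column of values per mouse. The values are linear intensity values deposited by the authors, read with Agilent Feature Extraction per the submitters' processing notes. No source used here gives the software version, how background was treated or why these features were kept. They are whole numbers up to 65535 outside the column of PO replicate 2, some at or below 0, with no scaling between arrays, so they were taken as background-subtracted. A second deposited table gives log2 fold changes over water for 51 named genes, with changes between 0.5-fold and 2-fold set to 0 per the file headers; here it served for names, grouping and sign of entry only. There are no detection flags, so precision rests on how many arrays a group has.

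Arrays were brought to the same 75th percentile before a floor of 16 and the log2. This floor touched 8 to 19 features per array and 145 on POS replicate 2. Group means of the 9 arrays (PC n = 3, PO, PCS and POS n = 2) were fitted with limma 3.58.1 in R 4.3.3 (lmFit, eBayes); the threshold was an adjusted p of 0.05 after Benjamini-Hochberg adjustment across the 12439 features. Storage was averaged over cultivation with equal weights. The fit was tested on simulated data. Fold changes are differences of mean log2 values with the SE of the fit; levels are scaled intensities with the SD.

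Genes were named as follows: those with negative entries; the 16 positive ones with the smallest p and no overlap; the 4 with the smallest difference; the 3 with the smallest interaction p; olfactory and vomeronasal receptors; and 4 higher and 4 lower unnamed features with at least a 1.5-fold difference and no overlap. The members, lists and rules were chosen with earlier results of these data known. Of the 51 accessions, 46 matched the mouse RefSeq table of GRCm38.p6, all with the same symbol; 43 genes had a promoter in it. Alternatives covered the scaling, the floor, dim features, the arrays fitted, the local trend, array weights, the variance model, cultivation, the replicate number and each array left out.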

Additional observations from a re-analysis of the deposited data

Results flagged for a closer look

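Among the 33 named genes and features and the array brightness, 7 of 68 groups held an array far from the others. Chance gives about 1 in 20 for independent groups. These groups were read on the same arrays, and many of the genes were named for having no overlap. The count therefore cannot be set against that rate. In the unstored arrays the array far from the others was PC replicate 2 each time. Synm read 2639 there against 2324 to 2351 on the other unstored arrays, Vmn1r20 1632 against 930.5 to 1052, Rbfox2 1324 against 1105 to 1128, Cpne4 1469 against 881 to 971, and Olfr1278 1505 against 899.9 to 999. Feature 41220 was low on it, at 46.4 against 63.5 to 72.2. Water control replicate 2, another array numbered 2, read 1699.5 for Vmn1r20, 1405 for Rbfox2 and 1419 for Cpne4, also above the other water controls, which reached 988, 1094 and 971. For Olfr1278 it read 83.7, below the other water controls at 1102 and 1265. In the stored arrays, Olfr1278 on POS replicate 2 read 1981 against 1569 to 1622.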

How the results depend on the processing

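With no scaling between arrays, 8013 features passed for storage averaged over cultivation, 5494 within conventional and 4300 within organic potatoes, and the median difference of the 48 positive genes was 1.38, where that of all features was 0.69. The median of the 48 was -0.37 with all 18 columns, 2 of which correlate negatively with the rest while another averages a stored and an unstored array. With all 18 columns these log2 differences turned: Synm -0.94, Mki67 -0.36, Vmn1r20 -1.07, Zbtb37 -0.33, Mylk3 -1.48, Smarcc1 -0.38, Catsperb -1.57, Zfp37 -0.034, Olfr1278 -1.25, Atf2 -0.52, Olfr1183 -1.08, Cish -0.35, Mzb1 -1.72, Btbd10 -1.10, Phldb2 -1.18, feature 41220 0.24, feature 33249 0.18. With the running median subtracted Phldb2 had -0.022. Treating stored and unstored arrays as 2 groups gave 1 feature, 5341 (limma, adjusted p 0.0293). Leaving out each array in turn gave 0 to 4391 features for the average, 0 to 4640 for POS against PO, 0 to 2738 for the interaction and 0 for PCS against PC; every count other than 0 came without POS replicate 1. The median of the 48 ranged from 0.50 to 0.87 over these fits, and the brightness ratio from 1.52 to 1.66. With the replicate block the counts were 0 for all 4 comparisons, as without it. The deviations of same-numbered arrays correlated at r = -0.043 and 0.066 between PC and PCS at 0.022 between PO and POS, at -0.0068 between PCS and POS and at 0.14 and 0.13 between PC and PO, so the numbers were not taken as pairs. Median scaling, quantile normalization, floors of 1 and 64, leaving out dim features, all 15 arrays, array weights and a variance trend also gave 0. The array weight was 0.176 for POS replicate 1 and for POS replicate 2 alike, so it could not set POS replicate 2 apart. Over 22 alternatives, 640 of 723 single differences kept their direction and side of the threshold, 65 passed it and 18 turned.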
